A study of Mus musculus with 6 samples.

Results

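The MYC and MXD network is a family of transcription factors that compete for a shared partner, and 7 of its genes were followed here: Myc, Mycn, Max, Mxi1, Mxd4, Mnt and Mlx. They were chosen by name, as the rows of a deposited expression table whose gene symbol equals a member, and all 7 were found among the 15118 genes of that table. The table holds RNA levels of 6 hearts dissected whole from mouse embryos of the Black-Swiss strain at stage E12.5. The 3 mutant hearts (numbers 5, 8 and 10) carried a null and a floxed Hif1a allele, and the 3 control hearts (numbers 2, 5 and 9) a wild-type and a floxed allele. Every embryo of both genotypes had Cre recombinase in 1 copy of Nkx2-5, a gene of cardiac progenitors and heart muscle, so that recombination is driven in those cells and not in all cells of the heart. Cells outside the Nkx2-5 lineage differ by 1 Hif1a allele between the genotypes as well. Hif1a codes for HIF1-alpha, the subunit of HIF1 that is degraded when oxygen is plentiful.

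MYC and MYCN activate transcription as heterodimers with MAX, which bind the E-box, the sequence CACGTG. MXI1, MXD4 and MNT bind the same sites with MAX, recruit SIN3 and histone deacetylases, and repress. MLX is a MAX-like protein that pairs with the glucose sensors MLXIP and MLXIPL and also with some MXD proteins and MNT. In the fetal mouse heart Mycn is known for its role in the growth of the ventricular muscle, and in human cells MXI1 is known as a HIF1 target that opposes MYC.

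Promoter sequence was looked at because the network acts through the E-box and HIF1 through the core letters ACGTG or GCGTG. RefSeq promoter windows of GRCm38.p6 (the build mm10), from 250 bases before to 50 bases after each annotated start, were matched for 6 of the 7 genes. The E-box lies in the windows of 4 members, and the stretches around it are shown on the gene's own strand with the E-box in capitals. Their positions are chr12:76962226-76962271 (minus strand) for Max, chr11:101087230-101087275 (plus) for Mlx, chr11:74830781-74830826 (plus) for Mnt and chr5:34187904-34187949 (minus) for Mxd4.
Max: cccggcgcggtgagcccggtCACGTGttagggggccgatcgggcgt
Mlx: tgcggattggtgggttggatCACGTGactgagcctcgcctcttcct
Mnt: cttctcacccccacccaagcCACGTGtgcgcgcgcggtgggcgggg
Mxd4: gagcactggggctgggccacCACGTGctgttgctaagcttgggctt

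The E-box begins 3 bases before the start of Max, 40 before Mlx, 123 before Mnt and 219 before Mxd4. Of all 32851 windows 7.15% hold CACGTG, which reads the same on both strands, and 19.6% hold ACGTG and 32.4% GCGTG on either strand. Each CACGTG also contains ACGTG. Mxi1, the HIF1 target of the family, has 3 annotated starts. Its first window (start at 53310506 on chromosome 19) holds none of these letters. The windows of the other starts (53329413 and 53329695) each hold 1 ACGTG and no CACGTG, shown with ACGTG in capitals, at chr19:53329327-53329371 and chr19:53329650-53329694 on the plus strand.
Mxi1, start 2: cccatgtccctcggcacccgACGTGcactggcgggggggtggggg
Mxi1, start 3: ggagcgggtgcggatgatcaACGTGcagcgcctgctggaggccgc

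The window of Mycn holds neither CACGTG nor either HIF1 core. These matches describe letters only, and binding was not measured.

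RPKM is a level per length, the reads on a gene's constitutive exons divided by their length and by the reads of the library. Means are over 3 hearts and are given ± SD. Log2 changes are mutant minus control on the log2(RPKM + 1) scale, so changes of weakly expressed genes come out too small. The test was limma with a mean-variance trend over the 13080 genes that reached 1 RPKM in 3 or more hearts, and a gene passed at a Benjamini-Hochberg adjusted p under 0.05. All 7 members entered the test. Since the labels describe no more than separate hearts, a p-value speaks only of the spread among these 6.

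Facts of the whole series touch these genes as follows. The low values imply between 100700000 and 158600000 reads for each library, and between 1254 and 3750 reads for each member in each heart. The counting error of those reads was 0.02 to 0.03 (SD, log2 scale) for the members, against 0.07 to 0.12 between hearts of a genotype. Pairs of hearts had correlations of 0.967 to 0.994 across the tested genes. Hif1a itself measured 69.5 ± 12.6 RPKM in mutant and 51.3 ± 8.54 RPKM in control hearts (limma adjusted p = 0.36), and since the exons lost in the alleles are not stated in the labels, this level checks no deletion. Of 12 cardiomyocyte markers all were tested, with a summed level of 20179 to 21968 RPKM in mutant and 19066 to 21113 RPKM in control hearts. None passed. In 3 of the 12 every mutant heart was above every control heart and in 0 below, against 7.6% and 9.43% of tested genes.

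None of the 7 members passed over all genes, where 0.818% of tested genes (107) did. At an unadjusted p under 0.05, 1 member passed, Mxi1, against 11.2% of all tested genes. Mxi1 was also the only member whose genotypes did not overlap, 1 of 7, against 17% of all tested genes without overlap and 9.43% with every mutant heart lower, and 1 of 7 is a share near these backgrounds. The members' median log2 change was 0.05, with 5 positive and 2 negative, against a median of −0.03 over all tested genes.

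**Figure D1:**
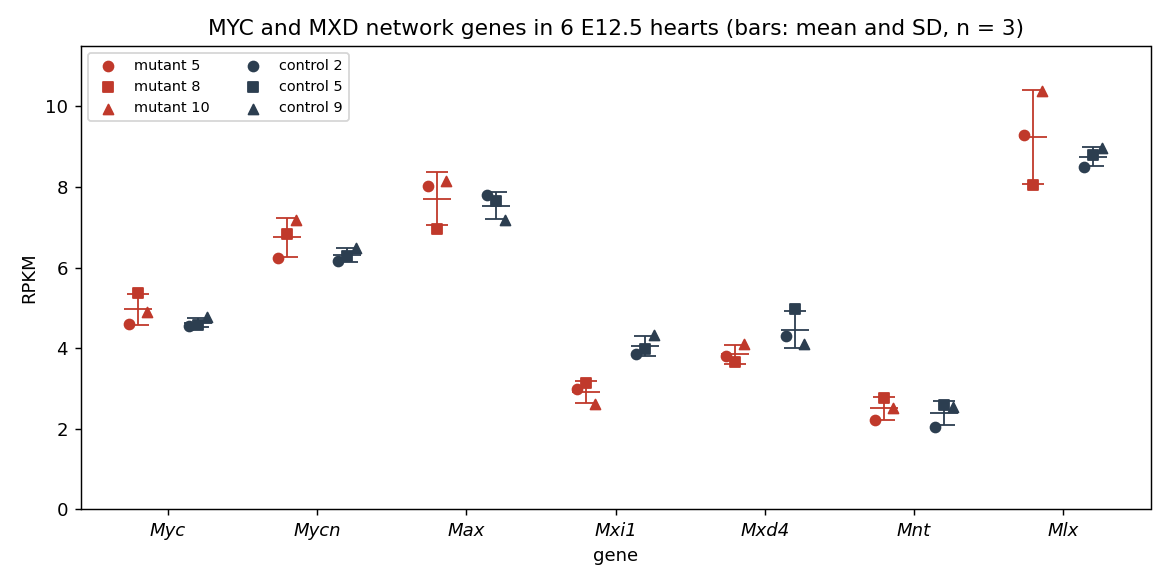
RPKM of the 7 network genes (horizontal axis) in each heart, mutants in red left of controls in dark blue, with the mean and SD of 3 hearts. Mxi1 is the only gene whose 3 mutant hearts (2.61 to 3.14 RPKM) all lie below its 3 control hearts (3.85 to 4.34 RPKM).

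Mxi1 (ENSMUSG00000025025, mm10 chromosome 19, 53310518 to 53375810, plus strand) encodes a repressor of the MXD branch. It had 2.99, 3.14 and 2.61 RPKM in mutants 5, 8 and 10, against 3.85, 3.98 and 4.34 RPKM in controls 2, 5 and 9. Every mutant heart was below every control heart, and mutant 10 was the lowest. The means were 2.91 ± 0.276 RPKM in mutant and 4.06 ± 0.250 RPKM in control hearts (n = 3 each), a ratio of 0.718. The log2 change was −0.37 ± 0.10 SE, with a 95% interval for this gene alone of −0.60 to −0.15. Its limma adjusted p = 0.19 misses the threshold, and it ranked 332 of 13080 genes by p. Over 15 alternative settings the change lay between −0.47 and −0.20 and the limma adjusted p between 0.14 and 0.54, so the difference was negative in each of them and passed in none. Both ends of the change came from adding 0.1 or 5 in place of 1 before the log, which alters the scale. With each heart left out the change lay between −0.41 and −0.31. The value sums constitutive exons that serve more than 1 start, so it does not say which start the transcripts used. Some 194 of the 6823 annotated exonic bases of Mxi1 are shared with Gm10197 on the opposite strand. Whether they lie in the 5645 constitutive bases found was not checked, and whether counting used strand is not stated. Gm10197 measured 9.89 ± 1.56 RPKM in mutant and 13.4 ± 1.80 RPKM in control hearts (limma adjusted p = 0.31), and reads of the pair may not be fully told apart.

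Other HIF1 targets stood on both sides of Mxi1. A list of 20 HIF1 target genes was chosen with results of these hearts known, and is thus no independent evidence of a direction. In it 10 genes passed and were lower and none passed and was higher, against 0.398% and 0.42% of all tested genes. Of the 20 log2 changes 19 were negative and 1 positive. The list's median log2 change was −0.65, against −0.37 for Mxi1. Bnip3, which acts in mitophagy, had the largest fall of the list (17.0 ± 2.66 RPKM in mutant and 81.7 ± 5.78 RPKM in control hearts, log2 change −2.21 ± 0.12 SE, limma adjusted p = 7.21e-05). Pdk1, a kinase that inhibits pyruvate dehydrogenase, fell by 2.04 on the log2 scale (adjusted p = 0.000133), Ldha, a lactate dehydrogenase subunit, by 1.38 (adjusted p = 0.000232) and Pfkl, a phosphofructokinase, by 1.44 (adjusted p = 0.000935). ACGTG stood in a promoter window of 15 of the 19 HIF1 targets with a window and of 5 of the 6 members, against 21.8% of all genes. In 4 of these members (Max, Mlx, Mnt and Mxd4) it was part of the E-box, and only Mxi1 held it outside an E-box. GCGTG stood in a window of 16 of the 19 targets and of 2 of the 6 members, against 35.2% of all genes.

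Mxd4 (ENSMUSG00000037235, chromosome 5, 34173883 to 34187720, minus strand), another MXD repressor, had 3.79, 3.65 and 4.11 RPKM in mutants 5, 8 and 10, against 4.30, 4.97 and 4.10 RPKM in controls 2, 5 and 9. Mutant 10 lay just above control 9, so the groups overlapped. The means were 3.85 ± 0.234 RPKM in mutant and 4.46 ± 0.460 RPKM in control hearts (log2 change −0.17 ± 0.10 SE, 95% interval −0.40 to 0.06, limma adjusted p = 0.58). The change was negative in all 15 alternatives, between −0.22 and −0.09, where −0.09 came from adding 5 in place of 1 before the log. With each heart left out it lay between −0.22 and −0.10. Of its 8483 annotated exonic bases 514 are shared with the antisense gene Gm42846 on the opposite strand, which was not analysed here. Whether they lie in the 3882 constitutive bases found was not checked. If they do, reads of that stretch cannot be told apart without strand.

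Mnt (ENSMUSG00000000282, chromosome 11, 74830920 to 74845725, plus strand), the repressor that antagonises MYC in most cell types, had 2.23, 2.77 and 2.50 RPKM in mutants 5, 8 and 10, against 2.05, 2.60 and 2.53 RPKM in controls 2, 5 and 9. The groups overlapped (log2 change 0.05 ± 0.11 SE, 95% interval −0.20 to 0.29, limma adjusted p = 0.90). Its sign turned in 3 of 15 alternatives.

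Both MYC genes had mutant means 1.07 times the control means, with overlapping groups. Myc (ENSMUSG00000022346, chromosome 15, 61985391 to 61990374, plus strand) had 4.60, 5.38 and 4.90 RPKM in mutants 5, 8 and 10, against 4.56, 4.56 and 4.76 RPKM in controls 2, 5 and 9. Mutant 5 lay among the controls and the other mutants above them (log2 change 0.08 ± 0.09 SE, 95% interval −0.13 to 0.29, limma adjusted p = 0.78). Mycn (ENSMUSG00000037169, chromosome 12, 12936093 to 12941914, minus strand) had 6.23, 6.83 and 7.18 RPKM in mutants 5, 8 and 10, against 6.16, 6.28 and 6.49 RPKM in controls 2, 5 and 9. Again mutant 5 lay within the control range and mutants 8 and 10 above it (log2 change 0.08 ± 0.09 SE, 95% interval −0.13 to 0.29, limma adjusted p = 0.77). Mycn was the higher of the pair in each of the 6 hearts, by 1.36 ± 0.0981 times in mutant and 1.36 ± 0.0122 times in control hearts.

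Max (ENSMUSG00000059436, chromosome 12, 76937269 to 76962201, minus strand), the shared partner, had 8.03, 6.96 and 8.14 RPKM in mutants 5, 8 and 10, against 7.80, 7.65 and 7.17 RPKM in controls 2, 5 and 9. The mutant hearts lay on both sides of the controls (log2 change 0.03 ± 0.10 SE, 95% interval −0.19 to 0.25, limma adjusted p = 0.94), and the sign turned in 4 of 16 alternatives, among them rescaling without haemoglobin genes. Mlx (ENSMUSG00000017801, chromosome 11, 101087277 to 101092207, plus strand) had 9.29, 8.05 and 10.4 RPKM in mutants 5, 8 and 10, against 8.50, 8.80 and 8.96 RPKM in controls 2, 5 and 9. Mutant 8 was the lowest and mutant 10 the highest heart of all (log2 change 0.06 ± 0.11 SE, 95% interval −0.18 to 0.30, limma adjusted p = 0.84), and the sign turned in 1 of 16 alternatives. Mlx shares 385 of its 1999 exonic bases with Psmc3ip on the opposite strand, which measured 10.6 RPKM in mutant and 10.8 RPKM in control hearts.

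**Figure D2:**
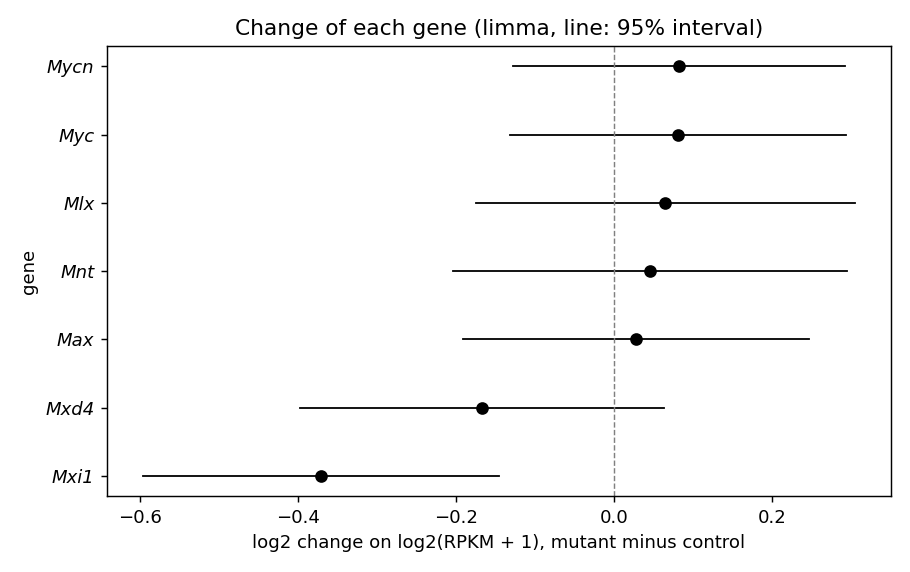
Log2 change of each network gene on log2(RPKM + 1), mutant minus control, with its 95% interval from limma, not adjusted for the number of genes tested. The interval of Mxi1 runs from −0.60 to −0.15, and the other 6 intervals include 0.

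By level per length the order over all 6 hearts was Mlx (mean 9.00 RPKM), Max (7.63), Mycn (6.53), Myc (4.79), Mxd4 (4.15), Mxi1 (3.48) and Mnt (2.45). The lowest Mycn value (6.16 RPKM) was above the highest Myc value (5.38 RPKM), and this was the only pair of neighbours whose ranges did not overlap. Within single hearts the order was steadier: Mlx was above Max, Max above Mycn and Mxi1 above Mnt in 6 of 6 hearts, while Myc exceeded Mxd4 and Mxd4 exceeded Mxi1 in 5 of 6. The exceptions were control 5, where Mxd4 (4.97 RPKM) was above Myc (4.56 RPKM), and control 9, where Mxi1 (4.34 RPKM) was above Mxd4 (4.10 RPKM). The members were moderately expressed, Mnt above 23.3% and Mlx above 63.4% of the tested genes by mean RPKM.

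The partners of MAX can be set side by side as summed RPKM, a description chosen after the values were seen and given with no test. Myc plus Mycn summed to 10.8, 12.2 and 12.1 RPKM in mutants 5, 8 and 10, against 10.7, 10.8 and 11.3 RPKM in controls 2, 5 and 9. Mxi1, Mxd4 and Mnt summed to 9.00, 9.57 and 9.22 RPKM in mutants 5, 8 and 10, against 10.2, 11.6 and 11.0 RPKM in controls 2, 5 and 9. This sum of 3 antagonists was lower in every mutant heart than in every control heart. Of the 3 only Mxi1 was so by itself, while Mxd4 and Mnt each overlapped between genotypes. Among single tested genes 9.43% were lower in every mutant heart. The ratio of the MYC sum to the antagonist sum was 1.20, 1.28 and 1.31 in mutants 5, 8 and 10, against 1.05, 0.938 and 1.03 in controls 2, 5 and 9. Mxi1 made up 31.4 ± 2.74% of the antagonist sum in mutant and 37.3 ± 2.59% in control hearts. With Mxd1 and Mxd3 added the antagonist sums overlapped (14.5 to 16.2 RPKM in mutant and 15.7 to 18.2 RPKM in control hearts). The ratio with them was 0.773 ± 0.0541 in mutant and 0.642 ± 0.0430 in control hearts, without overlap (0.731 to 0.834 against 0.597 to 0.683). Single tested genes did not overlap in 17% of cases, and no such share was computed for ratios. In bulk tissue fewer cells of a type and less RNA per cell cannot be told apart, and transcript levels do not give protein levels.

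**Figure D3:**
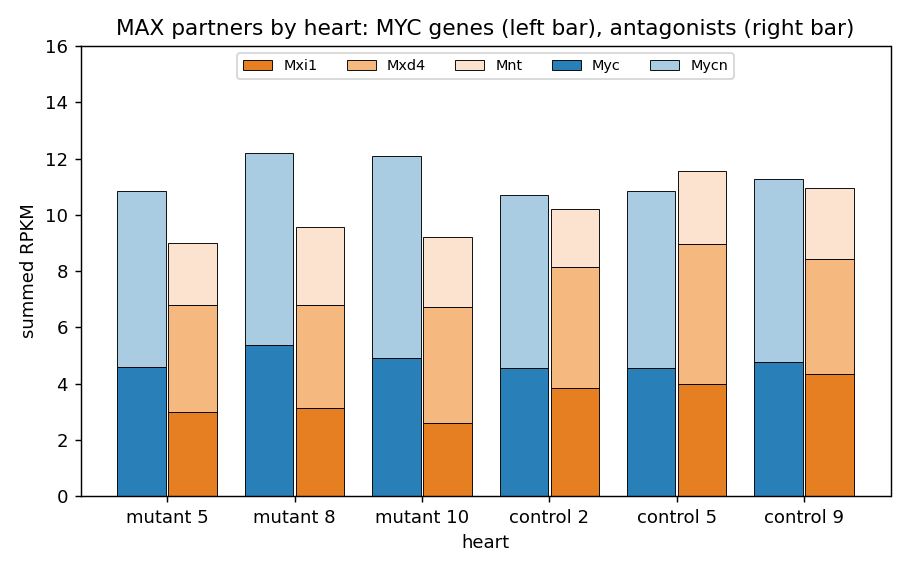
Summed RPKM of MAX partners in each heart, with Myc and Mycn in the left bar and Mxi1, Mxd4 and Mnt in the right bar. The left bar is 1.20 to 1.31 times the right bar in mutant hearts and 0.938 to 1.05 times in control hearts.

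Of 6 other bHLH-zipper genes of the network 4 were analysed (Mxd1, Mxd3, Mga and Mlxip), none passed, and all 4 log2 changes were negative, with a median of −0.11. Mlxip, the partner of MLX that responds to glucose, measured 2.33 ± 0.324 RPKM in mutant and 2.85 ± 0.195 RPKM in control hearts (limma adjusted p = 0.50). Mga, a large MAX partner, measured 4.63 ± 0.727 and 5.21 ± 0.656 RPKM in mutant and control hearts (adjusted p = 0.71), Mxd3 4.58 ± 0.685 and 4.88 ± 0.584 RPKM (0.84) and Mxd1 1.31 ± 0.0265 and 1.32 ± 0.121 RPKM (0.99).

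Of 17 corepressor genes that MXD proteins or MNT recruit none passed, with a median of 0.01 and 10 positive. Sin3a, the scaffold of the SIN3 complex, measured 9.22 ± 0.125 RPKM in mutant and 10.1 ± 0.824 RPKM in control hearts (limma adjusted p = 0.66). Its partner gene Sap30 measured 27.4 and 23.8 RPKM in mutant and control hearts, Sap18 21.1 and 18.0 RPKM, and Arid4b 4.43 and 5.29 RPKM (adjusted p of 0.52 to 0.57). Of 19 coactivator and partner genes of MYC none passed (median −0.07, 7 positive). Zbtb17, which encodes the MYC partner MIZ1, measured 7.20 ± 0.182 RPKM in mutant and 5.95 ± 0.700 RPKM in control hearts (adjusted p = 0.43). Of 18 genes that act on MYC protein turnover none passed (median −0.06, 5 positive). The deubiquitinase Usp7 measured 11.1 ± 1.20 RPKM in mutant and 13.9 ± 0.873 RPKM in control hearts (adjusted p = 0.32).

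Targets that MYC is known to activate lay slightly above 0, with no gene past the threshold. Of 36 nucleolar and ribosome biogenesis genes 31 had a positive and 5 a negative log2 change, against 5567 positive of the 13080 tested genes, and the median was 0.08. In 4 of the 36 all mutant hearts were above all control hearts, against 7.6% of tested genes. The ribosomal RNA processing gene Rrp12 had 4.62, 5.40 and 5.67 RPKM in mutants 5, 8 and 10, against 3.53, 4.01 and 3.93 RPKM in controls 2, 5 and 9 (log2 change 0.37 ± 0.10 SE, limma adjusted p = 0.21). Rrp9, a small nucleolar particle protein, measured 11.9 ± 1.45 RPKM in mutant and 8.85 ± 0.824 RPKM in control hearts (adjusted p = 0.24), Rrs1, a ribosome biogenesis factor, 6.88 and 5.49 RPKM (0.30) and Nop2, an RNA methyltransferase, 18.5 and 15.1 RPKM (0.34).

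Of 27 tested genes of growth, translation and nucleotide synthesis 21 were positive, with a median of 0.13. In 6 of them all mutant hearts were above all control hearts and in 1 (Tyms, thymidylate synthase, named after its values were seen) all were below, against 7.6% and 9.43% of tested genes. Spermidine synthase Srm had 22.6, 24.7 and 27.7 RPKM in mutants 5, 8 and 10, against 17.3, 18.3 and 20.1 RPKM in controls 2, 5 and 9 (log2 change 0.41 ± 0.11 SE, limma adjusted p = 0.17). The mitochondrial chaperonin Hspe1 measured 208 ± 13.2 RPKM in mutant and 161 ± 16.2 RPKM in control hearts (adjusted p = 0.20), the nucleoside diphosphate kinase Nme1 47.3 and 39.2 RPKM (0.30) and prohibitin Phb 89.3 and 75.9 RPKM (0.33). CACGTG stood in a promoter window of 11 of the 26 growth genes with a window (42.3%), of 6 of 31 nucleolar genes (19.4%) and of 8.09% of all genes. By heart, the growth list's median against the control mean was 0.10, 0.12 and 0.22 in mutants 5, 8 and 10, against −0.05 to 0.01 in the control hearts. The nucleolar list's was 0.05, 0.01 and 0.17 in mutants 5, 8 and 10, against −0.05 to 0.03 in the control hearts, so mutant 8 lay inside the control range and mutant 5 just above it. Over all genes log2 changes were lower in longer genes, with a median of 0.04 for the shortest of 5 length groups and −0.09 for the longest. The median exon length was 2906 bases in the nucleolar and 3342 bases in the growth list, against 3384 bases over all tested genes, and the part of length in these medians was not tested.

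Of 10 tested genes that MYC represses 1 passed and rose, Gadd45a, a growth arrest gene, against the 0.42% of all tested genes that passed and were higher. It had 3.72, 4.44 and 4.55 RPKM in mutants 5, 8 and 10, against 2.04, 1.49 and 1.70 RPKM in controls 2, 5 and 9 (log2 change 0.94 ± 0.12 SE, limma adjusted p = 0.0070). Without mutant 10 its adjusted p was 0.050, just above the threshold, and in the 4 hearts with chromosome Y transcripts 0.069. The CDK inhibitor Cdkn1a measured 7.57 ± 1.04 RPKM in mutant and 4.46 ± 0.764 RPKM in control hearts (adjusted p = 0.077). The antiproliferative gene Btg1 measured 6.79 and 8.32 RPKM and Ndrg2, of the NDRG family, 50.3 and 61.1 RPKM (0.37 and 0.48), and the list's median was −0.08 with 4 positive.

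Of 10 tested glucose-responsive targets of MLX with its partners none passed (median −0.01, 4 positive). Txnip, which restrains glucose uptake and is the best known of them, had 42.8, 42.8 and 33.8 RPKM in mutants 5, 8 and 10, against 44.0, 58.0 and 48.2 RPKM in controls 2, 5 and 9, so the mutants lay below all controls (log2 change −0.32 ± 0.13 SE, limma adjusted p = 0.41). Of these 10, 1 (Txnip) had every mutant heart lower and 1 had every mutant heart higher. The shares over all tested genes were 9.43% and 7.6%. Of 15 mitochondrial biogenesis genes none passed (median −0.01, 6 positive). Ppargc1b, a coactivator of mitochondrial genes that MXI1 is known to hold down in human renal carcinoma cells, had 2.34, 2.59 and 2.49 RPKM in mutants 5, 8 and 10, against 1.75, 2.05 and 1.70 RPKM in controls 2, 5 and 9. Its groups did not overlap (log2 change 0.29 ± 0.10 SE, adjusted p = 0.30). Of the 15, 1 (Ppargc1b) had every mutant heart higher and 0 had every mutant heart lower, against 7.6% and 9.43% of tested genes. Of 23 cell cycle genes none passed, with 21 negative and a median of −0.10. Their summed level was 758 to 819 RPKM in mutant and 848 to 940 RPKM in control hearts. Mki67, a proliferation marker, measured 18.7 ± 3.45 RPKM in mutant and 23.5 ± 2.27 RPKM in control hearts (adjusted p = 0.43), while cyclin E1, Ccne1, measured 9.57 and 7.92 RPKM (0.34).

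**Figure D4:**
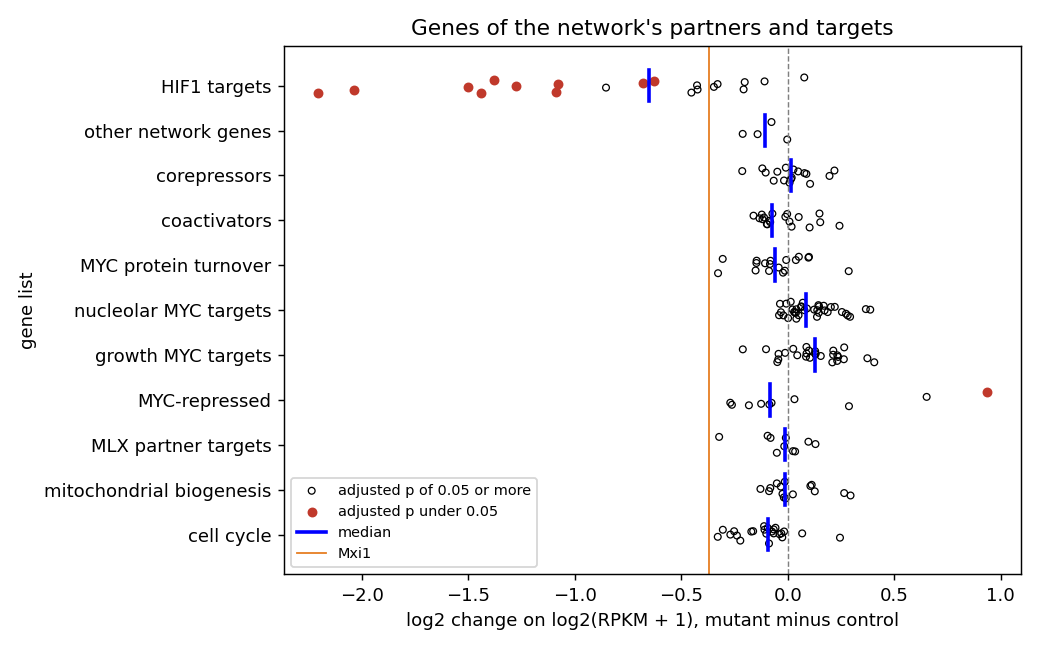
Log2 change of each tested gene (points, jittered within a row) of 11 lists of partners and targets, mutant minus control, with the list median as a blue bar and Mxi1 as an orange line. Genes past an adjusted p of 0.05 are filled; 10 are HIF1 targets and 1 is a MYC-repressed gene (Gadd45a).

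Markers of some other cell types were lower in the same hearts as Mxi1. The summed level of 13 macrophage markers was 15.3 to 37.2 RPKM in mutant and 43.7 to 51.9 RPKM in control hearts, and all 12 tested were negative (median −0.66, none passed). The macrophage median was −0.83 without mutant 5, where 3 of the markers passed and fell, and −0.38 without mutant 10, where none did. Over all tested genes 113 passed and were lower without mutant 5 and 18 without mutant 10, against 52 with all 6 hearts. The sum of 15 epicardial and mesenchymal markers was 424 to 540 RPKM in mutant and 599 to 648 RPKM in control hearts (13 of 15 negative, none passed). In 2 of the 15 (Col1a1 and Col1a2) every mutant heart was below every control heart, and in 0 above. Over all tested genes these shares were 9.43% and 7.6%. Col1a1 measured 84.4 and 118 RPKM in mutant and control hearts and Col1a2 46.6 and 81.8 RPKM. The epicardial markers Wt1 (5.60 and 6.22 RPKM) and Upk3b (34.5 and 33.3 RPKM) overlapped. These genes were named after their values were seen. The sum of 15 endothelial markers overlapped (167 to 187 RPKM in mutant and 176 to 203 RPKM in control hearts), but 11 of 14 tested were negative, with a median of −0.17 and none past the threshold. In 5 of these 14 every mutant heart was below every control heart, against the 9.43% of all tested genes. The endothelial junction gene Cldn5, named after its values were seen, measured 1.08 ± 0.412 RPKM in mutant and 2.57 ± 0.425 RPKM in control hearts (limma adjusted p = 0.064). Of the 14 tested, 3 were positive (Tie1, Npr3 and Plvap), also named after their values were seen. Plvap measured 15.8 ± 3.02 RPKM in mutant and 12.3 ± 0.514 RPKM in control hearts, with overlapping groups (limma adjusted p = 0.42). The sum of 13 erythroid markers overlapped (13324 to 22200 RPKM in mutant and 16107 to 18507 RPKM in control hearts). No deposited value of any gene was 0, so a marker above 0 does not show that its cell type was present. The part of cell composition in the values of Mxi1 was not tested.

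Genes with the profile most like a member were found by the root mean square difference over 6 hearts of log2(RPKM + 1) after subtracting the control mean, among 9199 tested genes with a mean of at least 2 on that scale. For Mxi1 they were As3mt (0.038), an arsenic methyltransferase, Gm12070 (0.052), Sox18 (0.053), an endothelial transcription factor, and the glycolytic enzyme Gapdh (0.056), where the median candidate differed by 0.300. As3mt measured 8.68 ± 0.348 RPKM in mutant and 11.6 ± 0.763 RPKM in control hearts, and Gapdh 1378 ± 96.1 and 1784 ± 164 RPKM (limma adjusted p = 0.14 and 0.24). These genes were picked for likeness to Mxi1 in the same hearts, so their lower mutant levels follow from the choice. For Myc they were Gm20604 (0.010), D2Wsu81e (0.024), the RNA-binding protein gene Dazap1 (0.027) and the lipid transfer protein gene Pctp (0.031). For Mycn they were Tssc1 (0.013), Gm17122 (0.025), Smap2 (0.025) and the RNA-binding protein gene Raly (0.026).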

How the data were processed

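RNA of 6 embryonic hearts was sequenced. The submitters' processing notes list Trim Galore, TopHat2 and mm10; neither the counter nor its use of strand is stated. RPKM values over constitutive exons were deposited by the authors on a linear scale, with a column for each heart, for genes with a geometric mean of at least 0.5 RPKM in a genotype. Depth was estimated from single-exon genes, where 87.5% to 94.8% of low values fell within 0.1 of a whole read, against 18.6% to 20.3% for other steps. Positions are from GENCODE M21 (mm10).

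Tests used limma 3.58.1 in R 4.3.3 on log2(RPKM + 1), all 6 hearts, no covariates, two-sided. In a check on simulated data for these 13080 genes, 53.6% of changes of 0.6 and 87.8% of changes of 1 (log2) were found. No smaller change was simulated, so the check does not cover changes as small as that of Mxi1 (−0.37). The members and the 16 lists were chosen with earlier results of these data known. Named are the members, up to 4 genes of smallest p per list, and the 4 closest profiles of Mxi1, Myc and Mycn. Marker lists are given as sums and counts, and a few of their genes were named after their values were seen. The partner ratio was added after the values were seen. Alternatives were other pseudocounts, filters, scalings, limma settings and sets of hearts.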

Additional observations from a re-analysis of the deposited data

How the results depend on the processing

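No member passed the threshold in any alternative that tested it (15 or 16 a gene), and Mxi1, Mxd4, Myc and Mycn kept their direction in each. On the log2 scale Max was −0.011 after rescaling without haemoglobin genes and −0.0090 to 0.090 with each heart left out, Mnt −0.029 to 0.103 with each heart left out and −0.084 without control 2 and mutant 8 (the extremes of the first principal component), and Mlx −0.015 to 0.150 with each heart left out. Genes past the threshold numbered 40 to 198 with each heart left out (198 without mutant 5, 40 without mutant 10, 52, 43 and 67 without controls 2, 5 and 9) and 53 in the 4 hearts with chromosome Y transcripts, against 107. Higher genes were 29 of 43 without control 5 and 85 of 198 without mutant 5. With each heart left out the median of the coactivator list ranged from −0.080 to 0.0048, of the growth list from 0.068 to 0.173, of the mitochondrial biogenesis list from −0.033 to 0.065 and of the erythroid list from −0.316 to 0.048. The growth median was 0.213 without control 2 and mutant 8. With a pseudocount of 5 the HIF1 target median was −0.432 and the macrophage median −0.281. At a minimum of 5 RPKM only Lyz2 of the macrophage markers was left, so the macrophage value of −0.478 is its unchanged log2 change. The epicardial and mesenchymal median was −0.322 there, over the genes that stayed. The cell cycle median was −0.060 with centred medians and −0.137 when scaled without haemoglobin genes. Mxd1 was 0.032 with centred medians and −0.036 to 0.038 with each heart left out, Mxd3 −0.167 to 0.0093 with each heart left out, and Elovl6 0.0065 without control 2 and mutant 8. A larger pseudocount shrinks log2 changes and a higher minimum removes genes from a list. The cause of the other shifts was not tested. No paired analysis was possible because the genotypes share 1 sample number.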
